A study of Bos taurus with 8 samples.

Results

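Mitochondrial ribosomal proteins build the ribosome that works inside the mitochondrion. All of them are encoded in the nucleus, made in the cytosol and imported. The members were the array probes whose annotated gene symbol begins with MRPL or MRPS followed by a number, 128 of 43794 probes. They stand for 75 genes of 15227 with a symbol, 46 with an MRPL symbol (large subunit) and 29 with an MRPS symbol (small subunit).

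Expression was measured in bovine blastocysts produced in vitro and collected 196 hours after fertilization, in pools of 10. One group was cultured with 0.01 mM AAPH, a compound that breaks down into peroxyl radicals, from day 3 to day 7, and the control group was cultured in the same media without it. Each treatment had 4 pools. The RNA was amplified before labelling, and each of 8 two-colour arrays carried AAPH RNA in one dye and control RNA in the other, 4 arrays in each orientation.

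The mitochondrial ribosome translates the few proteins encoded by mitochondrial DNA, all of them subunits of the oxidative phosphorylation complexes. Its small subunit binds the mRNA and reads the codons, and its large subunit forms the peptide bond and feeds the new chain to the inner membrane. Many of its proteins have relatives in the bacterial ribosome, others are found only in mitochondria. The cleavage-stage embryo divides with the mitochondria of the egg, and the blastocyst makes increasing use of oxidative phosphorylation.

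Ratios are log2 values of AAPH over control, given with the SD over 4 swap pairs, each a pair of arrays of opposite dye orientation averaged to cancel the dye. The pairing was read from the data, not from the labels. Signals are normalized log2 intensities, which compare pools for the same gene and not one gene with another. A probe counted as above background when its signal exceeded that of the negative control spots, and it was kept if at least 4 of the 8 arrays passed in the RNA of either treatment. Where a gene had several kept probes, the brightest stands for it.

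The number of probes above background on an array ran from 15525 to 36330 for AAPH RNA and from 13803 to 36079 for control RNA. On every array more probes passed for the RNA in Cy3 than for the RNA in Cy5, whichever treatment it came from. On array 2 these numbers were 33311 (control in Cy3) and 18893 (AAPH in Cy5), and on array 5 they were 25430 (AAPH in Cy3) and 13803 (control in Cy5). The trophectoderm markers KRT8, KRT18, TFAP2C and IFNT and the inner cell mass markers POU5F1 and NANOG were above background on all 8 arrays in both treatments. CDX2 and GATA3, of the trophectoderm, passed on 4 and 6 arrays for AAPH RNA and on 6 and 7 for control RNA. SOX2, of the inner cell mass, passed on 5 arrays for AAPH RNA and on 6 for control RNA. All 4 fibroblast markers had a positive ratio, led by LUM at 2.86 ± 1.52, VIM at 1.86 ± 0.62 and COL3A1 at 1.61 ± 0.76. Their mean signal ranged over 8.56 to 11.10 in AAPH pools and over 7.37 to 9.62 in control pools. The 5 cumulus and granulosa markers had a median ratio of 0.14, with PTX3 at 1.10 ± 0.91, TNFAIP6 at 0.85 ± 0.95 and the others between -0.090 and 0.14. The mean signal of the list ranged over 7.25 to 8.05 in AAPH pools and over 7.12 to 7.25 in control pools. The part of other cell types in the ratios below was not tested. In pooled embryos, fewer cells of a type and less RNA per cell cannot be told apart.

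Transcripts of nearly all member genes were measured. Of the 128 member probes, 120 were kept (93.8%), against 71.5% of all probes. They covered 73 genes, 45 of the large and 28 of the small subunit. The 2 genes without a kept probe were MRPL36, which passed on 2 arrays for AAPH RNA and on 3 for control RNA, and MRPS12, a protein of the decoding centre, which passed on 0 arrays for either. Of the 73 genes, 60 were above background on all 8 arrays in both treatments (39 large, 21 small), against 50% of all genes with a kept probe. These shares describe the probes chosen for the array as well as the embryos.

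No mitochondrial ribosomal protein transcript differed between AAPH and control blastocysts after correction for all probes tested. With limma's moderated test and Benjamini-Hochberg adjustment, 0 of 73 genes had an adjusted p under 0.05, and 0% of the 31325 kept probes did. At an unadjusted p under 0.05, 4 members were higher in AAPH blastocysts (2 large, 2 small) and 10 lower (7 large, 3 small). The background for these counts was 7.7% of all 12203 genes higher and 7.35% lower, against 5.48% of members higher and 13.7% lower. Over all 31325 probes the background was 5.72% higher and 7.93% lower. Without the third or the fourth swap pair, the 14 members at an unadjusted p under 0.05 were 5 and 9, and the share of all probes was 9.29% and 9.81%. With median centring of each array in place of loess, 1 member was higher and 23 were lower, and the share of all probes at an unadjusted p under 0.05 was 16.4%, against 13.7% with loess.

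The measured differences were small. The ratios of 63 members lay within 0.25 of 0 (86.3%), against 85.8% of all genes, and 0 lay beyond 0.5, against 2.37%. The 95% interval of the ratio lay within 0.5 of 0 for 63 members (40 large, 23 small), against 82% of all genes, and within 1 of 0 for all 73. The ratio was negative for 43 members (58.9%), against 48% of all genes, and for 51 with median centring. Signals of the 4 AAPH pools lay wholly below those of the 4 control pools for 1 member, MRPL39, against 0.901% of all genes, and wholly above them for 0, against 1%.

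**Figure D1:**
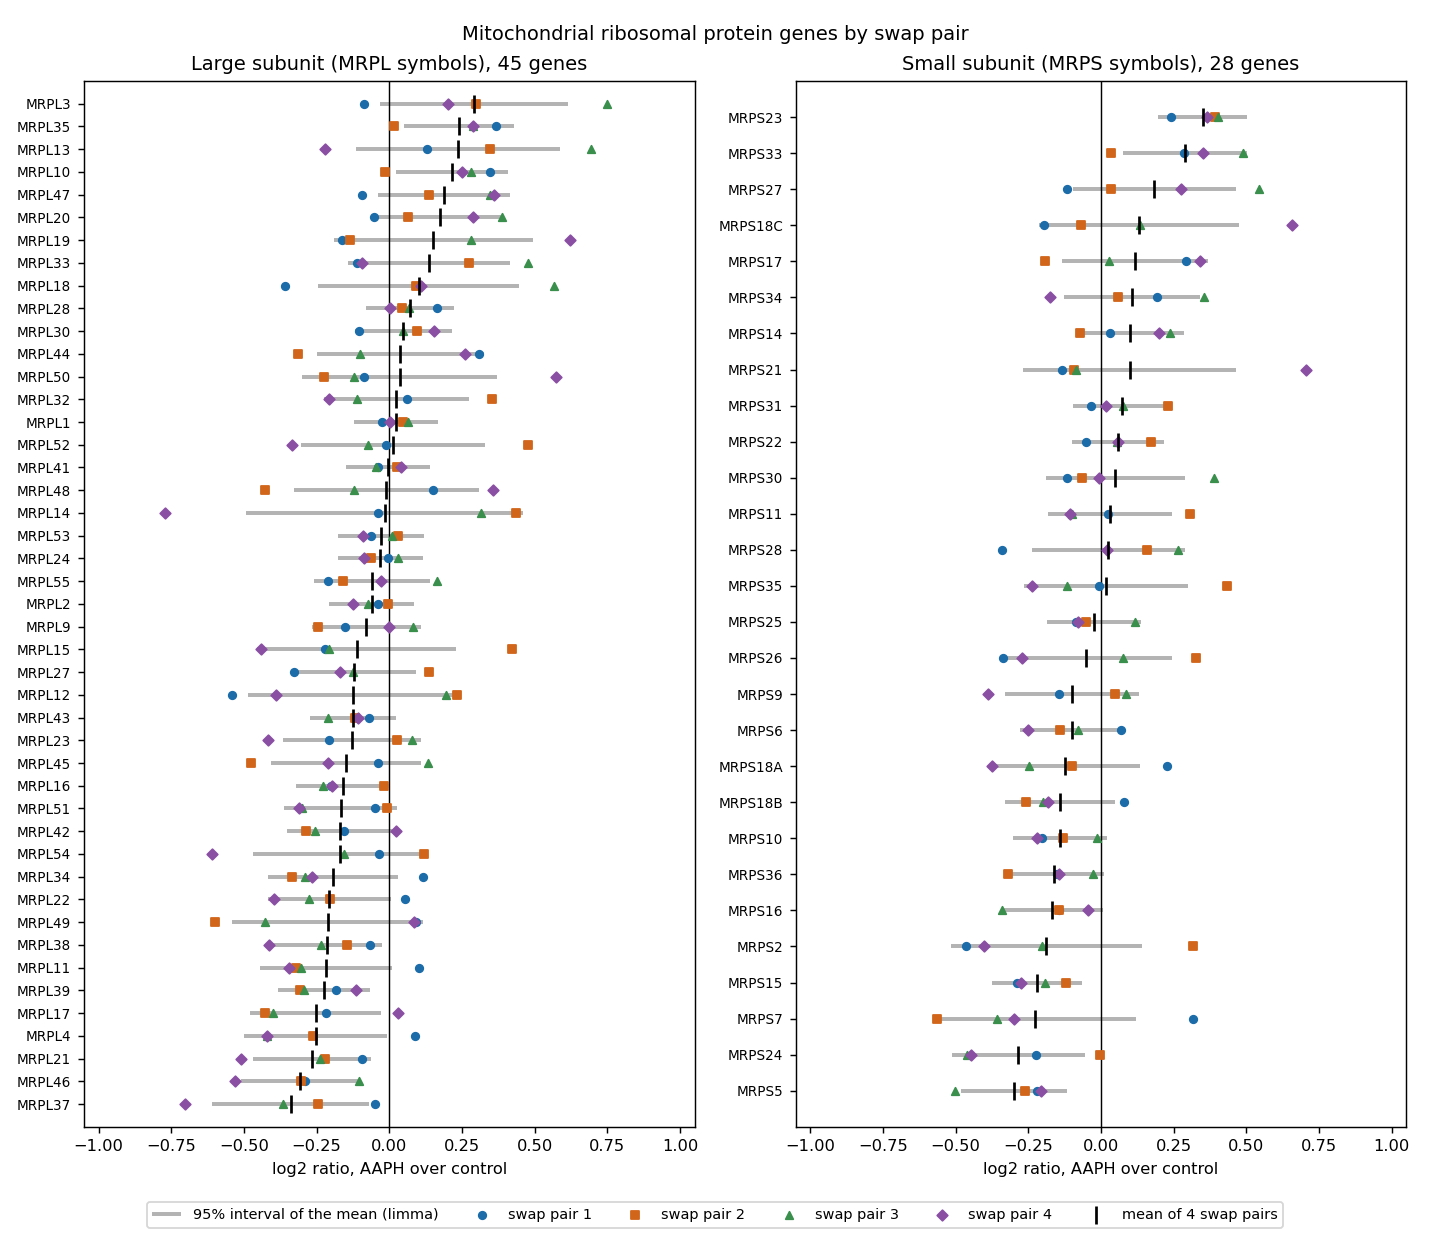
Log2 ratio of AAPH over control (x axis) for each of the 45 large subunit genes (left) and 28 small subunit genes (right), with 1 point per swap pair, the mean as a vertical tick and limma's 95% interval of the mean as a grey bar. The means run from -0.34 to 0.35, and the points of most genes fall on both sides of 0.

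The ratios of the large and the small subunit spanned much the same range, -0.34 to 0.29 in the large and -0.30 to 0.35 in the small. The median over all 73 members was -0.05, with medians of -0.064, -0.018, -0.045 and -0.11 in swap pairs 1 to 4, against 0.0058 for all genes. The large subunit had a median of -0.061, with 29 of 45 ratios negative, and its medians in swap pairs 1 to 4 were -0.052, -0.015, -0.074 and -0.11. The small subunit had a median of -0.0033, with 14 of 28 negative, and its pair medians were -0.10, -0.059, 0.0077 and -0.13. Without the first swap pair the small subunit's median was 0.029, and without the second it was -0.074. No difference between the subunits was tested, and the gap between their medians was smaller than the range of either median over the pairs. The small subunit's median was the higher one in swap pair 3 and the lower one in swap pairs 1, 2 and 4, so the order over gene means was not that of most pairs. Swap pairs 1 and 2 came from 1 slide and swap pairs 3 and 4 from the other slides. The median over all members was -0.073 within the first slide and -0.097 within the others.

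**Figure D2:**
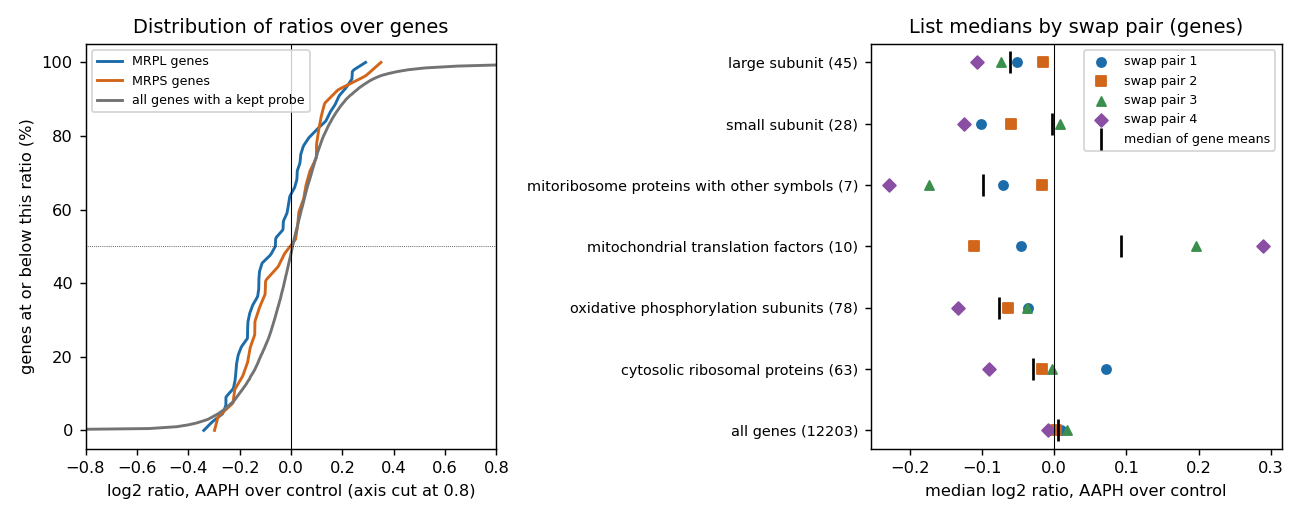
Left, the share of genes (%) at or below each log2 ratio of AAPH over control, for MRPL genes, MRPS genes and all genes with a kept probe; right, the median log2 ratio of each list in each of 4 swap pairs (points) and over gene means (tick), with the number of genes in brackets. The MRPL curve lies to the left of that of all genes over most of its range, with a median of -0.061 against 0.0058.

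Only 4 members had a positive ratio in all 4 swap pairs, MRPS23, MRPS33, MRPL35 and MRPL28, against 12.4% of all genes. MRPS23 and MRPS33 are proteins of the small subunit found only in mitochondria. MRPS23 had signals of 8.60, 8.90, 8.49 and 8.80 in the AAPH pools, against 8.36, 8.51, 8.09 and 8.43 in the control pools. Each AAPH pool was above its own control pool, and the ranges of the treatments overlapped narrowly. Its ratio was 0.35 ± 0.075, the largest of any member, with an unadjusted p of 0.00129 and an adjusted p of 0.173 (limma). It was positive on all 8 arrays, as was MRPS33, against 2.9% of all genes.

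MRPS33 had signals of 10.44, 10.37, 10.44 and 10.09 in the AAPH pools, against 10.15, 10.33, 9.95 and 9.74 in the control pools. The fourth AAPH pool was below the first and second control pools, so the treatments overlapped. The ratio was 0.29 ± 0.19, with a 95% interval of 0.077 to 0.50 and an adjusted p of 0.273 (limma).

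MRPL35, a large subunit protein with a bacterial relative, had signals of 9.86, 10.03, 9.52 and 9.21 in the AAPH pools, against 9.49, 10.02, 9.23 and 8.92 in the control pools. The spread over pools within a treatment was wider than the difference between partners. Its ratio was 0.24 ± 0.15 (adjusted p = 0.296, limma). MRPL28, also with a bacterial relative, had signals of 7.45, 7.35, 7.63 and 7.45 in the AAPH pools, against 7.29, 7.31, 7.56 and 7.44 in the control pools, close to background, and a ratio of 0.070 ± 0.069. Its probe passed on 6 of 8 arrays in each treatment.

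A negative ratio in all 4 swap pairs was found for 15 members (9 large, 6 small), or 20.5%, against 9.6% of all genes. The 12 with the smallest p were MRPS5, MRPL46, MRPS15, MRPL39, MRPL21, MRPL37, MRPS24, MRPL38, MRPL16, MRPS16, MRPS36 and MRPS10. MRPS5, whose bacterial counterpart borders the channel by which mRNA enters, had signals of 10.53, 10.04, 9.75 and 10.63 in the AAPH pools, against 10.74, 10.30, 10.26 and 10.84 in the control pools. Each AAPH pool was below its partner, with the widest gap in the third pair, and the treatments overlapped. Its ratio was -0.30 ± 0.14 (unadjusted p = 0.0068, adjusted p = 0.228, limma).

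MRPL46, a protein of the large subunit's central protuberance found only in mitochondria, had signals of 10.21, 9.49, 9.35 and 9.40 in the AAPH pools, against 10.50, 9.80, 9.46 and 9.93 in the control pools. The first pair was the highest in both treatments. The ratio was -0.31 ± 0.17 (adjusted p = 0.245, limma). MRPL46 was negative on all 8 arrays, as were MRPL43, MRPS15 and MRPS16, 4 members against 1.99% of all genes. In a fit of the 8 single arrays with a dye term and no swap pairs, MRPL46 and MRPS5 had adjusted p-values of 0.0413 and 0.0490 (limma). That fit called 2 of 73 members and 940 of 31325 probes, so the share of members was no larger than that of probes. It treats the arrays of a swap pair as independent, although their consensus correlation was 0.32. With the swap pair as a block in that fit, 0 members and 310 probes were called.

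MRPS15, which has a bacterial relative that binds the rRNA of the small subunit, had signals of 10.36, 10.31, 10.96 and 10.51 in the AAPH pools, against 10.64, 10.43, 11.15 and 10.78 in the control pools. The third pair was the highest in both treatments, and its AAPH pool was above the other control pools. The ratio was -0.22 ± 0.078 (adjusted p = 0.263, limma). MRPL39, found only in mitochondria, had signals of 14.49, 14.36, 14.49 and 14.65 in the AAPH pools, against 14.68, 14.67, 14.78 and 14.76 in the control pools. The highest AAPH pool was just below the lowest control pool. The ratio of this probe was -0.22 ± 0.091, or 1.17-fold lower in AAPH blastocysts, with an adjusted p of 0.264 (limma). The other kept probes of MRPL39 had a median ratio of 0.10.

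The lowest mean ratio of any member was that of MRPL37, a large subunit protein found only in mitochondria, at -0.34 ± 0.27 (adjusted p = 0.296, limma). Its ratios in swap pairs 1 to 4 were -0.048, -0.24, -0.36 and -0.70, so the size differed widely between pairs. MRPS24, counterpart of a bacterial protein at the mRNA entry site, had a ratio of -0.28 ± 0.22 and was at -0.0035 in the second pair. MRPL21, with a bacterial relative, had a ratio of -0.27 ± 0.18. The remaining genes of this set had ratios of -0.21 ± 0.15 (MRPL38), -0.16 ± 0.096 (MRPL16), -0.17 ± 0.12 (MRPS16), -0.16 ± 0.12 (MRPS36) and -0.14 ± 0.094 (MRPS10). The MRPL38 probe was positive on 4 of 8 single arrays, and the other kept probe of that gene had a ratio of 0.013. MRPL17 and MRPL4, both with bacterial relatives, had -0.25 ± 0.21 and -0.25 ± 0.24. Each was negative in 3 of 4 swap pairs, and both were among the 10 members lower at an unadjusted p under 0.05.

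**Figure D3:**
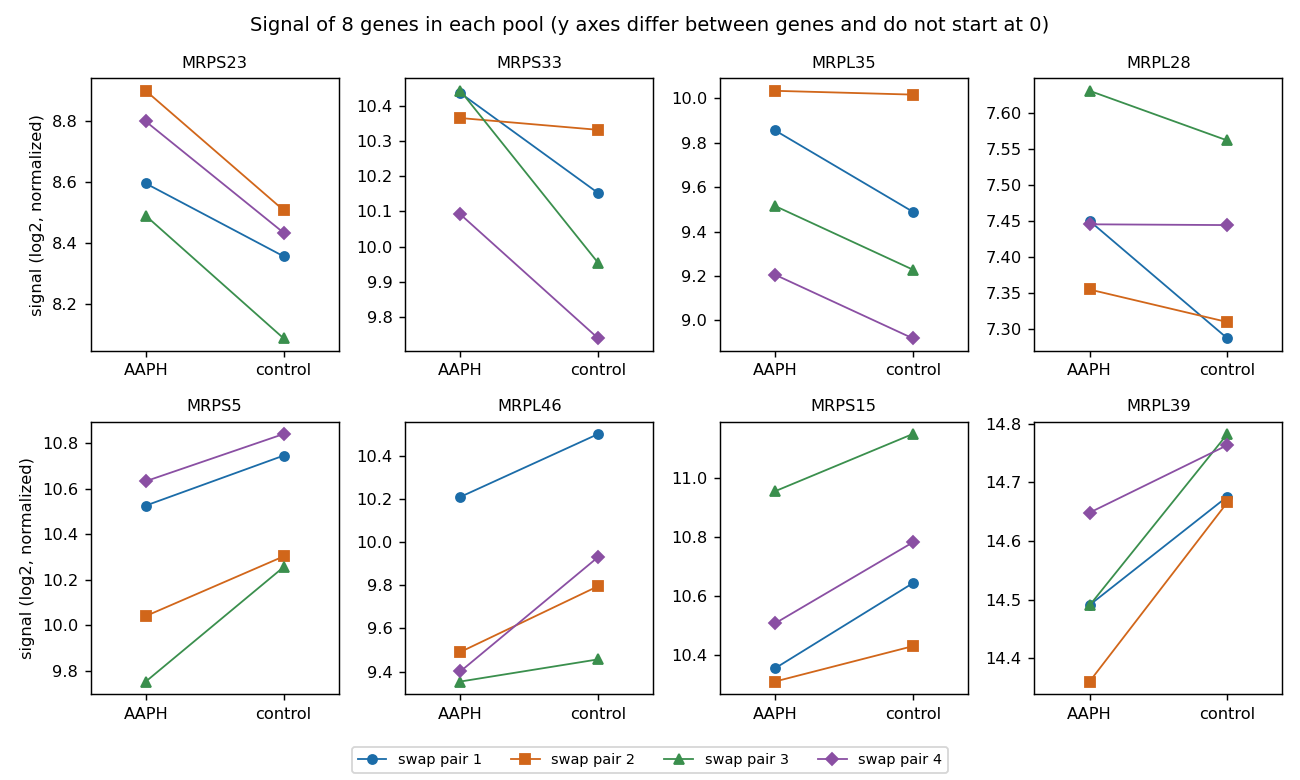
Normalized log2 signal (y axis, scaled separately for each gene and not starting at 0) of 8 genes in AAPH and control pools, with lines joining the pools of a swap pair. In MRPS23, MRPS33, MRPL35 and MRPL28 the lines run down from AAPH to control, in MRPS5, MRPL46, MRPS15 and MRPL39 they run up, and in every gene except MRPL39 the treatments overlap.

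By role, the proteins at the catalytic and factor-binding sites of the large subunit did not share a direction. MRPL3, whose bacterial counterpart reaches towards the peptidyl transferase centre, had signals of 9.95, 10.49, 10.11 and 9.99 in the AAPH pools, against 10.04, 10.19, 9.36 and 9.79 in the control pools. Its ratio of 0.29 ± 0.35 rested mainly on the third pair, at 0.75, while the first was at -0.088. MRPL10, which anchors the stalk where translation factors bind, had a ratio of 0.22 ± 0.16 (unadjusted p = 0.0341, adjusted p = 0.334, limma). MRPL11, at the base of that stalk, had -0.22 ± 0.21, with pair ratios of 0.10, -0.32, -0.30 and -0.35. MRPL12, the stalk protein itself, which in human cells also binds the mitochondrial RNA polymerase, had -0.13 ± 0.40, with pair ratios of -0.54, 0.23, 0.19 and -0.39. The pairs of MRPL12 thus split evenly in sign.

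MRPL41, found only in mitochondria, had a ratio of -0.0046 ± 0.043, and MRPL44, a large subunit protein with a ribonuclease III fold, had 0.038 ± 0.30. The members with the most and the least even pairs were MRPL1 and MRPL14, both with bacterial relatives. MRPL1 had a ratio of 0.023 ± 0.041 and the smallest SD of the 73, although it ranged from -0.25 to 0.38 over single arrays. MRPL14 had the largest SD, at -0.015 ± 0.54, with pair ratios of -0.040, 0.43, 0.32 and -0.77.

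In the small subunit, MRPS7, whose bacterial counterpart organizes the head, had signals of 9.53, 8.64, 8.43 and 8.77 in the AAPH pools, against 9.22, 9.20, 8.79 and 9.07 in the control pools. The first AAPH pool was the highest of all 8 and the other AAPH pools were the lowest, and the ratio was -0.23 ± 0.38. MRPS6, with a bacterial relative, had a ratio of -0.10 ± 0.13. MRPS22 and MRPS34, both found only in mitochondria and both genes of inherited mitochondrial disease in humans, had 0.059 ± 0.091 and 0.11 ± 0.22. The other kept probe of MRPS22 had -0.12. The MRPS34 probe passed on 6 of 8 arrays in each treatment and averaged -0.24 with AAPH in Cy5 and 0.46 with AAPH in Cy3. MRPS27, an RNA-binding pentatricopeptide repeat protein, had 0.18 ± 0.29, and MRPS28 had 0.026 ± 0.26. The adjusted p-values of these 6 genes ran from 0.526 (MRPS27) to 0.941 (MRPS28) in limma.

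In 3 members the symbol and the place of the protein differ. MRPS18A and MRPS30 carry small subunit symbols but sit in the large subunit, and had ratios of -0.12 ± 0.26 and 0.049 ± 0.23. Counting them with the large subunit left its median at -0.061 over 47 genes, and left the small subunit's at -0.0033 over 26. MRPS36, first described as a ribosomal protein and since found to be a subunit of the alpha-ketoglutarate dehydrogenase complex, had signals of 9.48, 9.59, 10.02 and 9.87 in the AAPH pools, against 9.63, 9.91, 10.05 and 10.02 in the control pools. Each AAPH pool was below its partner, and the ratio was -0.16 ± 0.12 (adjusted p = 0.391, limma). MRPS36 was still counted among the 26 small subunit genes, of which 13 were positive and 13 negative. Leaving out this negative member as well would put their median above 0. The 46 members with a bacterial relative had a median ratio of -0.070 and the 27 without had -0.024. The share of negative ratios was 58.7% and 59.3%. Pair medians were -0.094, -0.017, 0.0077 and -0.15 with a bacterial relative and -0.049, -0.053, -0.072 and -0.091 without. The order thus reversed in swap pairs 2 and 3, and no difference between these groups was tested.

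Agreement over arrays was checked by dye orientation. The mean ratios of the 4 arrays with AAPH in Cy5 and of the 4 with AAPH in Cy3 had the same sign for 43 members (58.9%), against 50.5% of all genes. They differed by more than 1 for 3 members, MRPS7, MRPS11 and MRPL38, against 2.52%. MRPS7 averaged -1.22 with AAPH in Cy5 and 0.77 with AAPH in Cy3. For MRPS11 these means were -0.93 and 0.99, and for MRPL38 they were -1.06 and 0.64. In these 3 genes the orientations stood on opposite sides of 0, and the mean over swap pairs is the small remainder.

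**Figure D4:**
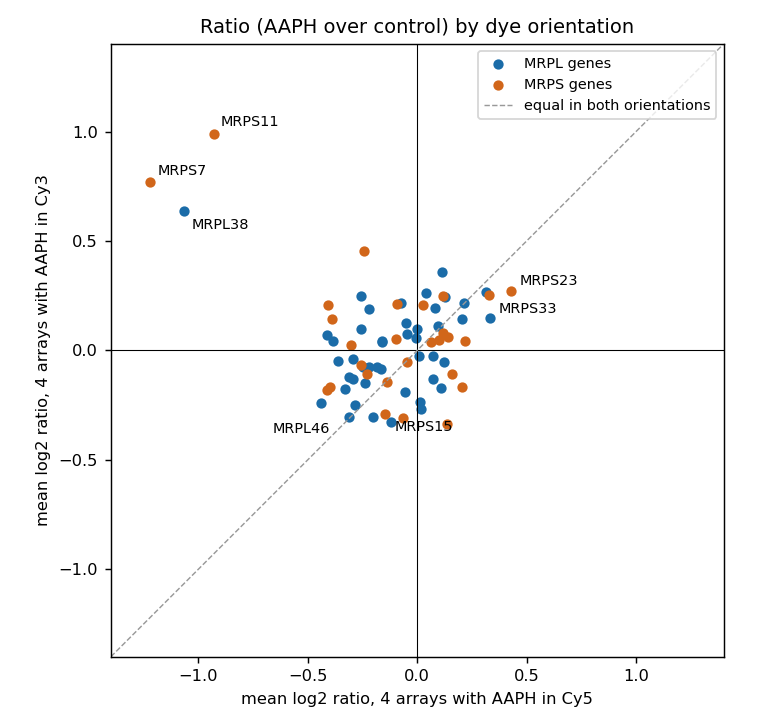
Mean log2 ratio of AAPH over control on the 4 arrays with AAPH in Cy5 (x axis) and on the 4 with AAPH in Cy3 (y axis), 1 point per gene, with the dashed line where both are equal. MRPS7, MRPS11 and MRPL38 lie far from the line at upper left, while MRPS23 and MRPS33 (upper right) and MRPL46 and MRPS15 (lower left) keep their sign.

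Different probes of a gene often disagreed. Of 34 members with more than 1 kept probe, 13 had all probes on the same side of 0 and 21 did not. Among the 12 of these genes whose brightest probe was positive, every other kept probe was negative in 11, MRPS33 being the exception. Some of these other probes were close to 0, such as those of MRPS31 (-0.0091), MRPS17 (-0.025) and MRPS18C (-0.030). The matching shares over all genes were not counted, so such disagreement cannot be called particular to the members. The other probes of MRPS23 had ratios of -0.22 and -0.042, those of MRPL35 -0.21 and -0.015, and those of MRPL28 -0.11 and -0.054. MRPL13, MRPL19 and MRPL30 had 0.24, 0.15 and 0.048 from the brightest probe and -0.19, -0.10 and -0.11 from the other. Among the 22 genes whose brightest probe was negative, every other kept probe was negative as well in 12. MRPL39 was among the rest, with other probes between -0.17 and 0.11 and their median at 0.10.

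The 47 dimmer kept probes of the members had a median ratio of -0.090, and 35 of them were negative (74.5%), against 55.5% of the 4348 dimmer kept probes of all genes. At an unadjusted p under 0.05, 10 of the 47 were lower in AAPH blastocysts (21.3%) and 0 higher, against 8.23% and 4.37% of the dimmer probes of all genes. The other probe of MRPL49 had the lowest ratio of any of them, -0.47, while its brightest probe had -0.21 ± 0.35. The dimmer MRPL49 probe averaged -1.26 with AAPH in Cy5 and 0.32 with AAPH in Cy3, orientation means on opposite sides of 0. Which transcript each probe reads was not examined, since probe sequences were not used here.

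**Figure D5:**
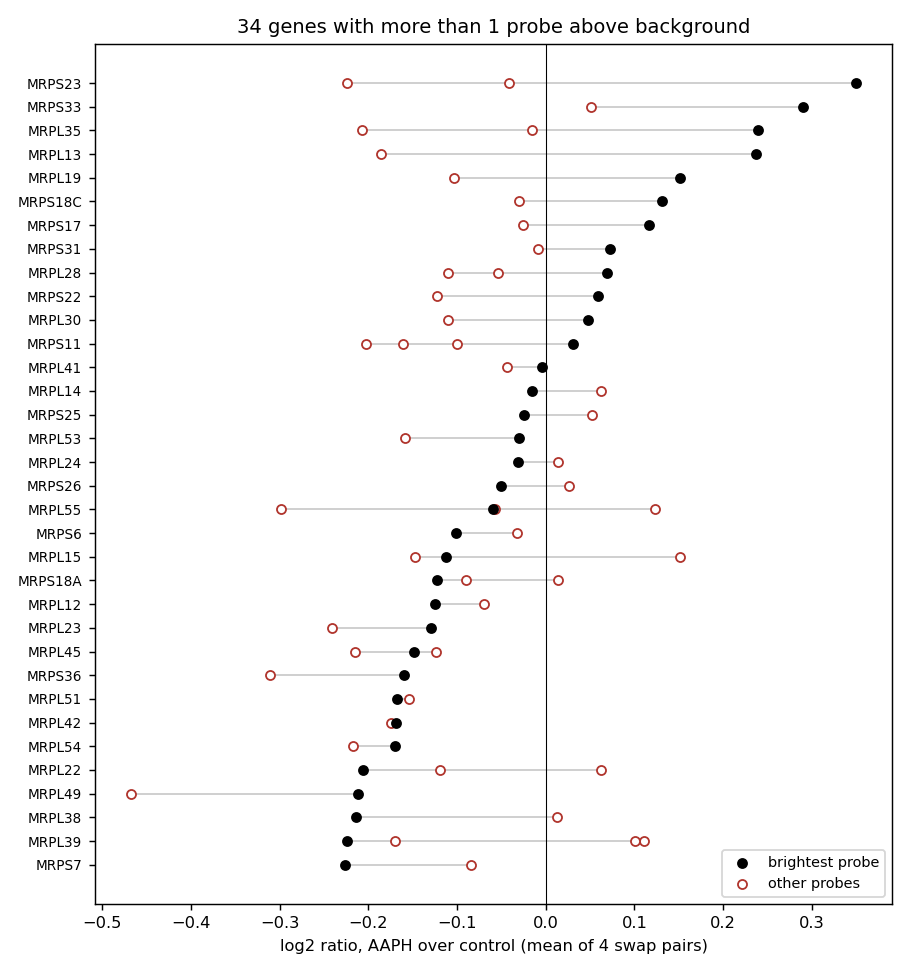
Log2 ratio of AAPH over control (x axis, mean of 4 swap pairs) of the brightest probe (filled) and the other kept probes (open) of the 34 members with more than 1 kept probe. Open points lie to the left of 0 in 11 of the 12 genes whose filled point is to the right of it.

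Signals of the members varied between pools of the same treatment. The range of a member's signal over the 4 AAPH pools had a median of 0.53 (0.14 to 1.48), and over the 4 control pools 0.58 (0.12 to 1.47), against medians of 0.46 in both treatments for all genes. The SD of the ratio over swap pairs had a median of 0.21 over members and 0.18 over all genes. The first swap pair had the highest signal in both treatments for 19 of the 73 members, against 12.7% of all genes. The third had the lowest in both for 17 (23.3%), against 15.7%.

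The other genes of the pathway are given by lists chosen by name. Of 7 mitochondrial ribosomal proteins with other symbols, 5 had a negative ratio, 0 were higher and 2 lower at an unadjusted p under 0.05, and the median was -0.099. Over all genes 48% were negative, 7.7% higher and 7.35% lower, and these shares hold for the lists that follow. AURKAIP1, a small subunit protein, had -0.37 ± 0.29, and MRP63, of the large subunit, had -0.26 ± 0.26. Of 10 mitochondrial translation factors, 8 had a positive ratio and the median was 0.093, but its pair values of -0.045, -0.11, 0.20 and 0.29 fell on both sides of 0. MTIF3, a mitochondrial initiation factor, had 0.26 ± 0.20 and was the 1 factor at an unadjusted p under 0.05.

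The 11 kept genes of ribosome assembly and rRNA modification had a median of -0.023, the 13 mitochondrial tRNA synthetases and amidotransferase subunits -0.0097, the 16 genes of mitochondrial transcription and RNA handling -0.0042 and the 8 nuclear regulators -0.030. SARS2, the mitochondrial seryl-tRNA synthetase, had -0.42 ± 0.25 and WARS2, the tryptophanyl one, 0.26 ± 0.24. PNPT1, which degrades RNA in mitochondria, had 0.32 ± 0.27, POLRMT, the mitochondrial RNA polymerase, -0.26 ± 0.19, and C1QBP, a mitochondrial matrix protein, -0.26 ± 0.26. Among the regulators, PPRC1, a coactivator, had -0.30 ± 0.19 and the transcription factor MYC had -0.20 ± 0.17. The adjusted p of each of these genes was above 0.05, the lowest being 0.225 for SARS2 (limma). No probe carried a listed symbol of a transcript encoded by mitochondrial DNA.

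The oxidative phosphorylation subunits, partners of the proteins that this ribosome makes, had a median of -0.077 over 78 genes with 50 negative. In this list 3 were higher and 9 lower at an unadjusted p under 0.05, against 7.7% and 7.35% of all genes. It was taken by symbol and also holds COX4NB, at -0.10, which is not a subunit of these complexes. The 63 cytosolic ribosomal proteins had a median of -0.030 with 38 negative, and 3 were higher and 3 lower, against the same shares of all genes. Neither list was tested against the mitochondrial ribosomal proteins.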

How the data were processed

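RNA of pools of 10 bovine blastocysts was compared on 8 two-colour arrays. Per the file headers, the deposited scanner files give each spot's foreground and background intensity in both dyes, on a linear scale. The authors' deposited table of log2 ratios was used as an alternative. Set against the scanner ratios it had slopes of 0.933 to 0.981 and correlations of 0.977 to 0.994, which fixes the scale as log2 and the direction as AAPH over control. Its column medians, for arrays 1 to 8, were -0.013, -0.0086, 0.012, 0.0094, -0.015, 0.0080, -0.019 and -0.020. The submitters' processing notes name limma without a version, and its normalization remains unknown.

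Intensities were processed in R 4.3.3 with limma 3.58.1: normexp background correction (offset 50) on mean foreground and median background, loess within arrays with control spots at weight 0, and Aquantile scaling for signals only. A probe was above background when its raw foreground exceeded the median of the negative controls by 3 median absolute deviations, and it was kept if 4 of 8 arrays passed in either treatment. The number of arrays limits the precision.

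The labels do not say which arrays share extracts. Of 24 possible pairings of opposite orientations, the one with the highest summed correlation of deviations from the orientation mean was used. Its correlations were 0.57, 0.52, 0.16 and 0.39, all above 0.1, and those of the 12 other pairs were -0.34 to 0.044. Choosing the highest sum itself favours such a gap, and the third pair, at 0.16, is the least certain. Swap pairs 1 to 4 were arrays 1 and 3, 2 and 4, 7 and 5, and 8 and 6. The pair means (n = 4, 3 residual degrees of freedom) were tested against 0 with lmFit and eBayes, adjusted by Benjamini-Hochberg over 31325 probes. The procedure was tested on simulated data with independent noise and known pairs. It called 40.7% of simulated differences of 0.5 (log2) and 80.7% of those of 1. The data differ in that their pairing was read from the arrays. The labels do not tie pools to separate fertilizations, and p-values cover only the spread among the pools used.

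Symbols came from the platform annotation, which gave 21790 probes 1 symbol, 0 several and 22004 none. All 75 member symbols are in RefSeq's genes for ARS-UCD2.0. Members and lists were chosen with earlier results of these data known. Named members were up to 12 in each direction of smallest p with 1 sign in all 4 pairs, those with the largest and smallest SD, those whose symbol and place differ, a set by role, and those whose probes differ in sign; of each other list, up to 2 in each direction of smallest p. MRPL4, MRPL17, MRPL43 and MRPL49 were named after their values were seen. Alternatives covered background correction, normalization, the filter on dim probes, the replicate unit, slides and left-out pairs.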

Additional observations from a re-analysis of the deposited data

Results flagged for a closer look

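For each of 73 members, the 4 pair ratios, the 4 AAPH signals and the 4 control signals were searched for a swap pair far from the other 3, by a gap to the nearest that took up more of the range than Dixon's 95% critical value. With the medians of the members and of each subunit this made 222 sets, of which 13 had such a pair. Chance gives about 1 in 20, or 11.1.

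Among ratios, MRPL11 stood at 0.10 in swap pair 1 while its other pairs lay between -0.35 and -0.30. MRPL34 was at 0.12 in swap pair 1, with the others between -0.34 and -0.27. MRPL16 was at -0.018 in swap pair 2, with the others between -0.23 and -0.20. MRPS21 was at 0.71 in swap pair 4, with the others between -0.13 and -0.084, so that its positive mean rests on that pair. MRPS25 was at 0.12 in swap pair 3, with the others between -0.084 and -0.053.

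Among AAPH signals, MRPL46 was at 10.21 in swap pair 1, above the others at 9.35 to 9.49, and MRPL52 was at 13.15 in swap pair 2, above the others at 12.47 to 12.59. Among control signals, MRPL16 was high in swap pair 1 at 10.63, and MRPL21 and MRPL38 were high in swap pair 4 at 13.36 and 10.41. MRPL30 was low in swap pair 4 at 9.03, and MRPL45 and MRPS18B were low in swap pair 3 at 9.44 and 8.64.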

How the results depend on the processing

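A fit of the 8 arrays with a dye term but no replicate block treats the arrays of a swap pair as independent. In that fit 2 members were called (MRPL46 and MRPS5), as were 940 of 31325 probes. In it 25 members had an unadjusted p under 0.05, against 19.8% of all probes. With the swap pair as a replicate block, 0 members and 310 probes were called, and 17 members had an unadjusted p under 0.05, against 4710 of 31325 probes. In every other alternative run, 0 members were called. The 14 members at an unadjusted p under 0.05 in the reported fit stood against 13.7% of all probes. They became 24 with median centring (16.4% of probes), 4 within slide 26 (9.08%), 24 within slides 78 and 79 (16.8%), 7 with an intensity trend and robust variances (14.1%), 7 of 64 members with probes above background on all 8 arrays (15.4%), and 5 to 19 with each pair left out (9.29% to 15.9%). Members were counted by the brightest probe of each gene, while these shares are over all kept probes. The share of members was below that of all probes within slide 26, with the intensity trend, with probes above background on all 8 arrays and without swap pair 3. It was above it in the other runs just listed. The median over all members was -0.10 with median centring and -0.097 within slides 78 and 79. For the large subunit these were -0.15 and -0.10. The small subunit's median was -0.091 within slides 78 and 79, between -0.074 and 0.029 with each pair left out, and 0.0025 without the filter on dim probes. Over 10 settings that change the estimates, within-slide fits included, 43 of 73 members kept their sign. The cause of these shifts was not tested. With 4 pairs, small ratios are not resolved.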
